A study of Mus musculus with 12 samples.

Results

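Natural killer (NK) cells kill by releasing cytotoxic granules, and 10 genes of granule release and self-protection were followed by RNA-seq in cultured mouse NK cells: Srgn, Ctsc, Ctsd, Ctsw, Lamp1, Rab27a, Unc13d, Stx11, Stxbp2 and Serpinb9. They were chosen by name, for their known roles but with earlier results of these data known, out of 11706 genes in the expression table. All 10 passed the filter on low values, at least 1 RPKM on average, which 11142 genes passed. RPKM corrects read numbers for gene length and sequencing depth, so levels of different genes can be set side by side.

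The cells came from spleens of C57BL6 mice, were grown for 6 days with IL-15 at 10 ng/mL, purified on magnetic columns, and then given IL-2 at 330 U/mL with IL-12 at 10 ng/mL for 18 h, per the labels. A genotype experiment had a PKM2 WT group, mice heterozygous for Cre at the NK cell gene Ncr1 (3 libraries), and a PKM2 KO group, mice with the same Cre and floxed PKM2 alleles, NCR1Cre het PKM2fl/fl (2 libraries). The deletion is thus driven in cells that express Ncr1, and both genotype groups carry the Cre. A drug experiment had wild-type cells given TEPP-46, an activator of the PKM2 enzyme (3 libraries), or vehicle (3 libraries). The labels disagree on the TEPP-46 dose, 50 µM or 50 mM, and on the vehicle, DMSO at 0.1% or PBS. The labels call the libraries of a group biological replicates, but the sources used do not state the age of the mice or whether each library came from its own animal or culture. P-values set a group difference only against the spread of these libraries.

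In cytotoxic granules, the proteoglycan serglycin packs granzymes and perforin, and cathepsins process or degrade proteins in the same lysosome-related compartment. On contact with a target cell, granules are docked at the membrane by Rab27a, primed by the Unc13d protein and fused through syntaxin 11 and its partner Stxbp2. In humans, inherited loss of any of these 4 genes impairs killing and leads to severe immune disease. Serpinb9 stays in the cytosol, where it inhibits granzyme B and protects the killer cell.

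The libraries were checked on Pkm, the targeted gene, on NK markers and on markers of other cells. The RPKM are given per gene, so different transcripts of Pkm cannot be told apart. Pkm stood at 198 to 221 RPKM in PKM2 WT, against 76.7 and 78.4 RPKM in PKM2 KO, and fell by 1.40 on the log2 scale (limma, adjusted p = 0.00847). In the drug experiment Pkm stood at 1019 to 1208 RPKM with vehicle and at 1053 to 1155 RPKM with TEPP-46. Ifng, the cytokine gene that IL-12 is known to induce, was at 18.8 to 24.3 RPKM in the libraries labelled PKM2 WT and PKM2 KO, and at 797 to 1083 RPKM in the drug experiment, although the labels give both the same cytokines. The ratio of PKM2 KO to PKM2 WT in the RPKM was set beside the authors' deposited table for the 6 of its 11 genes that matched. That table has a condition 2/12 and a condition US, which it does not spell out. For Slc37a4 the ratio was 0.847, against 0.411 under 2/12 and 0.845 under US in the authors' deposited table. For Pkm it was 0.377, against 0.539 and 0.396 there, and for Dixdc1 0.360, against 0.168 and 0.383, so these 3 genes were nearer to US. Nlrx1, Rnf26 and Cd3g were nearer to 2/12. For Cd3g the ratio was 0.1238, against 0.1206 under 2/12 and 0.0896 under US in the authors' deposited table. For Rnf26 it was 0.6955, against 0.6601 and 0.6213, and for Nlrx1 0.1857, against 0.1858 and 0.1947. Pkm was 5.78-fold higher under 2/12 than under US in WT cells in the authors' deposited table, and 5.27-fold higher with vehicle than in PKM2 WT in the RPKM. Whether the libraries labelled PKM2 WT and PKM2 KO received IL-2 and IL-12, as their labels say, is uncertain, and they may be unstimulated. They are named by their labels here. All 10 NK markers were present, with a summed level of 3635 to 4794 RPKM, although single markers differed between the experiments, as given below. Of other cell types, 3 of 10 T cell markers and 7 of 14 granulocyte, basophil and mast cell markers were matched, and of B cell and erythroid markers 0 of 8 each. The RNAs Rn7s1, Rn7s2 and Rn7sk made up 48.3% to 56.2% of the summed RPKM in the genotype libraries and 32.4% to 42.0% in the drug libraries. In these bulk samples, fewer cells of a type and less RNA per cell cannot be told apart.

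The genes lie on 7 chromosomes of GRCm38 and all 10 are protein-coding. Srgn is at chr10:62493833-62527451 and Stx11 at chr10:12938209-12964298, both on the minus strand. Ctsc is at chr7:88278085-88310888 on the plus strand and Ctsd at chr7:142375911-142388038 on the minus strand. Stxbp2 is at chr8:3630955-3643644 and Lamp1 at chr8:13159161-13175338, both on the plus strand. Rab27a, at chr9:73044854-73097629 on the plus strand, starts 13.4 Mb after the start of Pkm. Unc13d is at chr11:116062095-116077961 on the minus strand, Serpinb9 at chr13:33003250-33017957 on the plus strand and Ctsw at chr19:5465043-5468507 on the minus strand. Some exons are not unique to 1 gene. Of the 50-base stretches of Ctsd transcripts 32.4% also occur in the annotated same-strand gene Gm49369, so its level is uncertain to that extent, while for each of the other 9 genes the share was at most 3.59%. Ctsw overlaps Fibp on the other strand, which was at a mean of 13.1 RPKM, and the sources used do not say whether reads were counted by strand.

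Promoter sequence was available from RefSeq on GRCm38.p6 for 8 of the genes, as the 250 bases before each transcription start. Rab27a and Srgn have a pair of starts each, which makes 10 windows, and Unc13d and Ctsw had no entry. The windows of Serpinb9, Ctsd and Lamp1 are shown because these genes held the largest difference between experiments, the smallest spread between libraries of the drug experiment and the most motif matches. They are chr13:33004291-33004540 on the plus strand, chr7:142387828-142388077 on the minus strand and chr8:13158911-13159160 on the plus strand, each written 5′ to 3′ along its gene. The Serpinb9 window lies inside the gene span given above and the Ctsd window partly so, since their RefSeq starts differ from those of that annotation. Capitals mark matches to the motifs named next.
Serpinb9: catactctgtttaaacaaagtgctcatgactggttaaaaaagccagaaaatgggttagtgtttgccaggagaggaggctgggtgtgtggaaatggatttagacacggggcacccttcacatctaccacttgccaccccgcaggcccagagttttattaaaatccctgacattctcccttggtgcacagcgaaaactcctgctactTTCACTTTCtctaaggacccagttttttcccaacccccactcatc
Ctsd: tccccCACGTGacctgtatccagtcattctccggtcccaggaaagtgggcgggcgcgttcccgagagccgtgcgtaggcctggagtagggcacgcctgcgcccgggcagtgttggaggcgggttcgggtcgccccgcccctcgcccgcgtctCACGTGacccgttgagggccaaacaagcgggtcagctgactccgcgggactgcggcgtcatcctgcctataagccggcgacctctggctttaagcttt
Lamp1: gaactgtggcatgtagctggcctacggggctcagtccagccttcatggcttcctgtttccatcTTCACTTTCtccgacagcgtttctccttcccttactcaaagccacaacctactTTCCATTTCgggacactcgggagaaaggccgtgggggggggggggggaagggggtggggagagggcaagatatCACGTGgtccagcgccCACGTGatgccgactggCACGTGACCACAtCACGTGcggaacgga

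The motifs were searched on both strands. The E-box core CACGTG, a palindrome counted once per position, occurred in 4 of the 10 windows, against 6.02% of all 32851 promoters of the same length. Lamp1 held it 61, 45, 28 and 15 bases before the start, Ctsd 245 and 98 bases before, Stxbp2 14 bases before and the second Rab27a start 246 bases before. The core of the interferon-stimulated response element, TTCNNTTTC, occurred in 3 windows, against 7.13% of all promoters. Serpinb9 held it 45 bases before its start, Lamp1 at 187 and 134 bases, and the second Srgn start at 220 bases on the opposite strand. The T-box motif GGTGTGA was found in 2 windows, of Ctsc and Rab27a, against 3.33% of all promoters, and the STAT palindrome TTCNNNGAA in 1, of Ctsc, against 7.02%. RUNX letters TGTGGT were in 3 windows, against 14.0% of all promoters, and ETS letters CCGGAA in 1, against 12.0%. In Lamp1 the RUNX match directly follows an E-box core without overlapping it. Such matches describe letters and not bound sites.

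**Figure D1:**
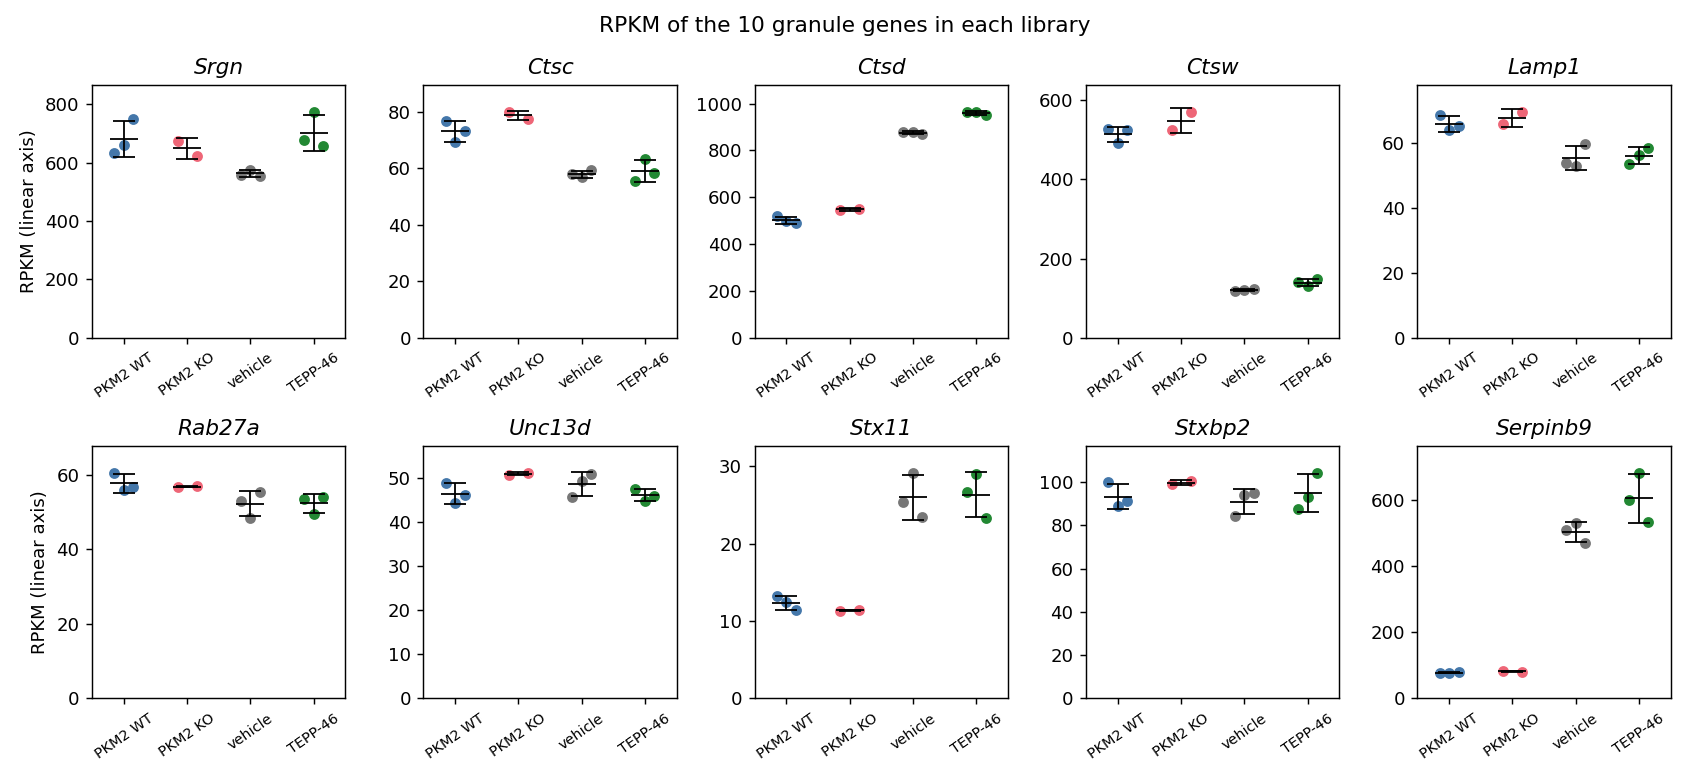
RPKM of each of the 10 genes (linear axes from 0) in the libraries of the 4 groups; points are libraries, the bar is the group mean and the whiskers its SD (n = 3, and 2 in PKM2 KO). Serpinb9 and Ctsw stand far apart between the genotype and the drug libraries, while Rab27a, Unc13d and Stxbp2 stay within a narrow band.

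Srgn encodes the core protein of serglycin, the scaffold of the granule. PKM2 WT libraries 1 to 3 held 632, 659 and 748 RPKM of it, and PKM2 KO libraries 1 and 2 held 675 and 624 RPKM. With vehicle it was at 557, 576 and 555 RPKM, and with TEPP-46 at 677, 773 and 657 RPKM. The vehicle libraries were the lowest of all, and every TEPP-46 library lay above every vehicle library. The PKM2 WT and PKM2 KO libraries overlapped. Srgn was the most abundant of the 10 genes in both genotype groups and second to Ctsd in the drug experiment, although with TEPP-46 its range overlapped that of Serpinb9.

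Ctsc, dipeptidyl peptidase I, removes the propeptide that keeps granzymes inactive. Its level was 76.8, 69.4 and 73.3 RPKM in PKM2 WT, against 79.98 and 77.6 RPKM in PKM2 KO. The drug experiment gave 57.9, 56.8 and 59.3 RPKM with vehicle and 55.5, 63.3 and 58.2 RPKM with TEPP-46. Every genotype library lay above every drug library. Ctsd, the main aspartic protease of lysosomes, was at 519, 497 and 488 RPKM in PKM2 WT, against 545 and 552 RPKM in PKM2 KO. It reached 879, 879 and 870.4 RPKM with vehicle and 963, 964 and 949 RPKM with TEPP-46. No 2 of its groups overlapped, and its spread was the smallest of the 10 genes in the drug experiment, with a coefficient of variation of 0.574% with vehicle and 0.860% with TEPP-46.

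Ctsw, a cathepsin found chiefly in NK cells and cytotoxic T cells, went the other way. PKM2 WT libraries held 526, 492 and 525 RPKM, and PKM2 KO libraries 526 and 570.4 RPKM. Only 119, 121 and 124 RPKM were found with vehicle, and 139.6, 129.9 and 148 RPKM with TEPP-46. Ctsw and Ctsd thus stood side by side in the genotype libraries, where their ranges overlapped, and far apart in the drug libraries. Ctsw was 103% ± 4.36 of the Ctsd level in PKM2 WT (SD, n = 3) and 13.8% ± 0.345 with vehicle (SD, n = 3).

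Lamp1 encodes a lysosomal membrane glycoprotein that appears at the cell surface when granules are released. Its level was 68.4, 63.9 and 65.1 RPKM in PKM2 WT and 65.6 and 69.5 RPKM in PKM2 KO. In the drug experiment it was 53.7, 52.9 and 59.7 RPKM with vehicle and 53.3, 56.4 and 58.4 RPKM with TEPP-46. The genotype libraries all lay above the drug libraries, and within each experiment the groups overlapped.

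Of the docking and fusion genes, Rab27a, Unc13d and Stxbp2 varied little between groups, and Stx11 did not. Rab27a, the small GTPase that docks granules, was at 60.5, 55.9 and 56.7 RPKM in PKM2 WT, against 56.7 and 56.9 RPKM in PKM2 KO. It was at 52.98, 48.5 and 55.3 RPKM with vehicle and at 53.5, 49.4 and 54.0 RPKM with TEPP-46. The genotype libraries were slightly higher, by less than 1 RPKM between the lowest of them and the highest drug library. Unc13d, the priming factor, was at 48.9, 44.2 and 46.1 RPKM in PKM2 WT, against 50.7 and 51.2 RPKM in PKM2 KO. Vehicle gave 45.6, 49.3 and 50.96 RPKM and TEPP-46 47.4, 44.7 and 45.98 RPKM. Both PKM2 KO libraries lay above the PKM2 WT and TEPP-46 libraries, and the vehicle range overlapped that of every other group.

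Stx11, the syntaxin of granule fusion, was the lowest of the 10 genes in every group. PKM2 WT libraries held 13.2, 12.5 and 11.4 RPKM, and PKM2 KO libraries 11.3 and 11.5 RPKM. The drug libraries held 25.4, 29.2 and 23.4 RPKM with vehicle and 26.7, 29.1 and 23.3 RPKM with TEPP-46. The 2 experiments did not overlap, while the groups within each did. Stxbp2, which binds syntaxin 11 and is needed for its stability, was at 99.75, 88.7 and 91.1 RPKM in PKM2 WT, against 98.97 and 100.4 RPKM in PKM2 KO. With vehicle it was at 84.1, 93.98 and 94.7 RPKM and with TEPP-46 at 87.4, 92.99 and 104 RPKM. Groups overlapped within each experiment, and of the pairs across experiments only PKM2 KO and vehicle did not. Stx11 came to 13.3% ± 0.773 of Stxbp2 in PKM2 WT (SD, n = 3) and to 28.7% ± 3.42 with vehicle (SD, n = 3).

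Serpinb9, the granzyme B inhibitor, had the widest range of the 10 genes between experiments. PKM2 WT libraries held 76.5, 76.9 and 80.2 RPKM, and PKM2 KO libraries 83.0 and 80.8 RPKM. Vehicle libraries held 507, 530.4 and 469.9 RPKM and TEPP-46 libraries 598, 681 and 533 RPKM. PKM2 KO lay just above PKM2 WT, and TEPP-46 above vehicle by a margin of under 3 RPKM between the nearest libraries. Serpinb9 held rank 5 among the 10 genes in PKM2 WT, where its range overlapped that of Ctsc, and rank 3 with vehicle, where it overlapped no neighbour.

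The comparison of the libraries labelled PKM2 WT with the vehicle libraries crosses the 2 experiments, so group, experiment and a possible lack of cytokines in the libraries labelled PKM2 WT cannot be told apart in it. Here 7 of the 10 genes passed the threshold, an adjusted p under 0.05 (limma). Ctsw, Ctsc, Srgn and Lamp1 were higher in PKM2 WT, and Serpinb9, Stx11 and Ctsd were lower. That is 4 higher and 3 lower, where 36.7% and 38.6% of all tested genes were called higher and lower, so the members' share was near the background. The docking and priming genes Rab27a and Unc13d and the fusion factor Stxbp2 did not pass. The median over the 10 genes was 0.09 on the log2 scale, and over all genes -0.0038.

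Ctsw was 4.25-fold higher in PKM2 WT than with vehicle, a log2 difference of 2.08 (SE 0.06, adjusted p = 6.02e-09, limma). Serpinb9 was 6.45-fold lower, with a log2 fold change of -2.67 (SE 0.08, adjusted p = 8.18e-09). Stx11 was 2.10-fold lower (log2 -1.01, SE 0.10, adjusted p = 7.77e-06) and Ctsd 1.75-fold lower (log2 -0.81, SE 0.05, adjusted p = 2.12e-07). The PKM2 WT and vehicle libraries did not overlap in these 4 genes, nor in Ctsc, Srgn, Lamp1 and Rab27a. For Rab27a the nearest libraries were at 55.9 and 55.3 RPKM, so lack of overlap alone does not mark a wide margin. The share of all genes without overlap was not counted in this comparison. Smaller differences were 1.26-fold for Ctsc (log2 0.33, adjusted p = 0.000603), 1.21-fold for Srgn (log2 0.27, adjusted p = 0.0131) and 1.19-fold for Lamp1 (log2 0.24, adjusted p = 0.00466). Rab27a reached 0.14 (adjusted p = 0.0604), Stxbp2 0.04 (adjusted p = 0.694) and Unc13d -0.07 (adjusted p = 0.318). Under quantile normalization these 3 genes passed as higher in PKM2 WT, at 0.39 for Rab27a (adjusted p = 0.000143), 0.29 for Stxbp2 (adjusted p = 0.00373) and 0.15 for Unc13d (adjusted p = 0.0291), the last with its sign turned, which makes 7 higher and 3 lower. The exact permutation test of a single gene with 3 against 3 libraries cannot go below p = 0.1, which the 7 genes and Rab27a reached.

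**Figure D2:**
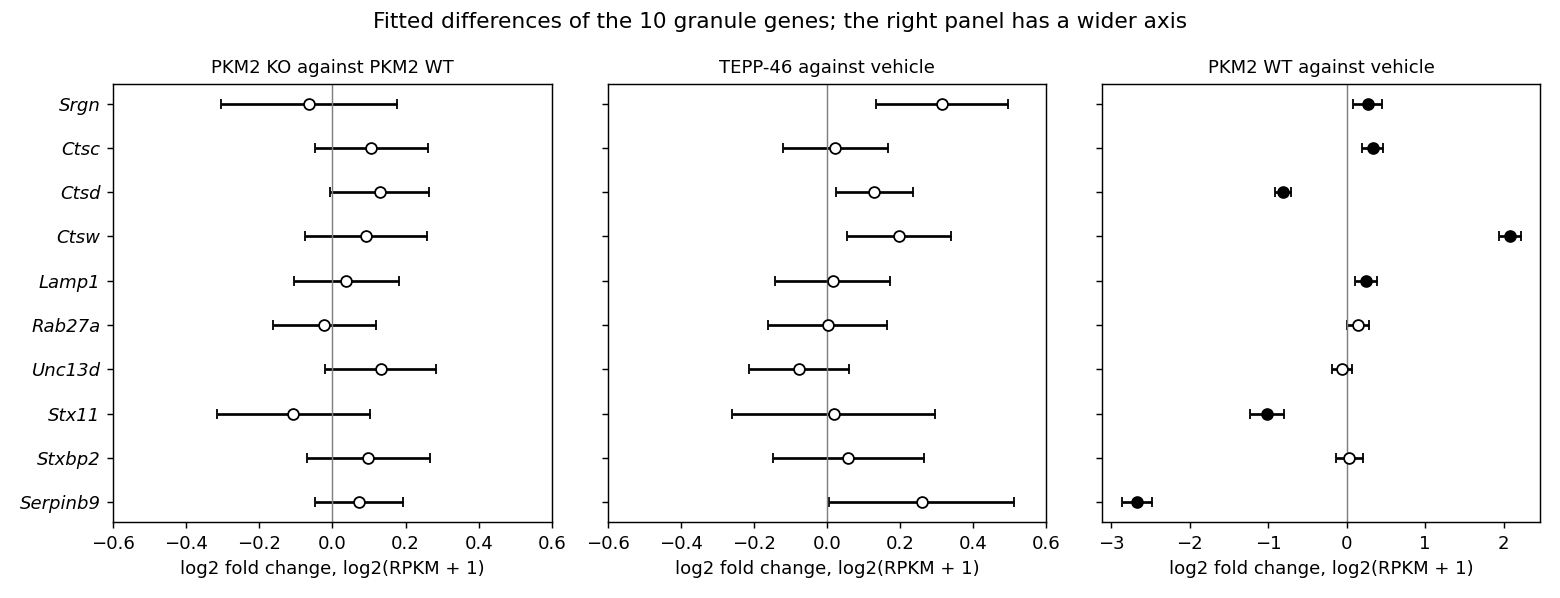
Log2 fold change of each of the 10 genes on log2(RPKM + 1), with its 95% confidence interval from limma, in 3 comparisons; filled points passed an adjusted p of 0.05 and the right panel has a wider axis. No point is filled in the first and second panels, and 7 are in the third, with Serpinb9 at -2.67 and Ctsw at 2.08.

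Serpinb9 was set beside Gzmb, the gene of the protease it inhibits. Gzmb was 5.37-fold lower in PKM2 WT than with vehicle, at a mean of 2753 against 14777 RPKM, so both genes were low together. Serpinb9 came to 2.83% ± 0.155 of Gzmb in PKM2 WT (SD, n = 3) and to 3.41% ± 0.387 with vehicle (SD, n = 3). Within libraries that ratio ran from 2.65% to 2.93% in PKM2 WT and from 3.02% to 3.80% with vehicle, which is a small difference beside the difference of either gene. Pkm, which is not a granule gene, was 5.27-fold lower in the same comparison, so a steady ratio to Gzmb is not particular to Serpinb9. Ctsc, which activates granzyme B, did not keep such a ratio. It came to 2.66% ± 0.0083 of Gzmb in PKM2 WT and to 0.393% ± 0.0128 with vehicle (SD, n = 3 each). Srgn came to 24.8% ± 2.65 and to 3.82% ± 0.282 of Gzmb in the same groups. These ratios are descriptions of the values above and were not tested.

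**Figure D3:**
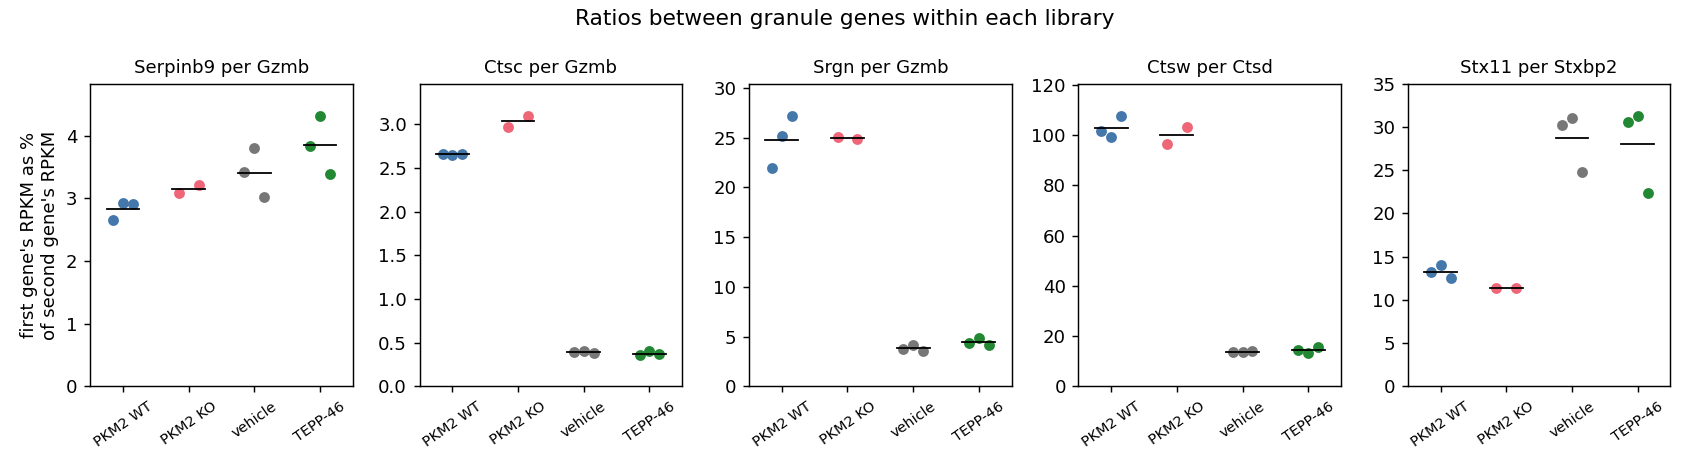
RPKM of 1 gene as a percent of that of another in the same library (axes from 0), by group; points are libraries and bars group means. Serpinb9 per Gzmb lies between 2.65% and 4.31% in all libraries, while Ctsc per Gzmb, Srgn per Gzmb and Ctsw per Ctsd are several times higher in the genotype libraries and Stx11 per Stxbp2 is higher in the drug libraries.

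Other genes of the pathway were taken from lists, to be read against the 36.7% of all genes called higher and 38.6% called lower. Among other docking and fusion genes, 18 of 31 tested (58.1%) were higher in PKM2 WT than with vehicle and 9 (29.0%) lower. Sytl3, a synaptotagmin-like protein of a family of Rab27 effectors, was lower (log2 -1.15, adjusted p = 9.79e-08), while Vamp1 (log2 1.30, adjusted p = 7.51e-07), Rab3d (log2 1.15, adjusted p = 3.47e-06) and Stx16 (log2 0.98, adjusted p = 5.86e-06), which act in membrane traffic, were higher. Among granule biogenesis and transport genes 12 of 26 (46.2%) were higher and 5 (19.2%) lower, and Lyst, whose loss gives giant granules, was higher (log2 1.25, adjusted p = 1.40e-06). Of the other lysosome genes 21 of 37 (56.8%) were higher and 6 (16.2%) lower, with Grn, the progranulin gene, at 2.10 (adjusted p = 2.03e-07) and Ctsz, a carboxypeptidase, at -1.16 (adjusted p = 2.10e-07). Ctsz was thus lower in PKM2 WT as Ctsd was. Of 3 cystatins, inhibitors of cysteine cathepsins, Cst7 was higher, at a mean of 254 RPKM against 90.2 RPKM with vehicle (log2 1.49, adjusted p = 2.81e-07). Cystatin F, its product, is known to inhibit cathepsin C. Cst3 was also higher (log2 0.30) and Cstb lower (log2 -0.74).

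Of 5 other clade B serpins tested, 3 were lower in PKM2 WT than with vehicle, as Serpinb9 was, and 1 was higher. Serpinb6b was the lowest of them (log2 -1.32, adjusted p = 2.04e-05), followed by Serpinb1b (log2 -1.01) and Serpinb9b (log2 -0.56), and Serpinb6a was higher (log2 0.84, adjusted p = 1.00e-05). Of the granule cargo genes 8 of 12 (66.7%) were higher and 3 lower, the lower ones being Gzmb (log2 -2.42), the pore-forming perforin gene Prf1 (log2 -1.60) and Nkg7 (log2 -1.03), which is also 1 of the NK markers. Genes that build the sugar chains of serglycin were split, with 5 of 14 (35.7%) higher and 6 (42.9%) lower, and so were synapse actin genes, with 6 of 16 (37.5%) higher and 5 (31.2%) lower, both near the shares of all genes. NK markers and markers of other cells moved with this contrast. Of the 10 NK markers 6 were higher in PKM2 WT and 2 lower. Klrb1c was at a mean of 386 RPKM against 42.5 RPKM with vehicle (log2 3.16, adjusted p = 4.21e-09, limma). Ncr1 was at 238 against 97.8 RPKM (log2 1.28), while Nkg7 and Il2rb (log2 -0.70) were lower. The summed level of the 7 granulocyte, basophil and mast cell markers was 124 to 308 RPKM in PKM2 WT and 7.47 to 26.9 RPKM with vehicle, and that of the 3 T cell markers 96.5 to 126 and 12.9 to 16.1 RPKM, with no matched marker listed at 0 throughout. The 3 of 8 dendritic cell markers that matched summed to 259 to 282 RPKM and 21.8 to 24.7 RPKM, chiefly through Itgax. Whether Itgax came from dendritic cells or from the NK cells themselves was not tested. Of the other dendritic cell markers, Xcr1 was lower in PKM2 WT (1.67 against 11.7 RPKM, log2 -2.26, adjusted p = 1.73e-07) and Zbtb46 did not pass (log2 0.25, adjusted p = 0.106). The only macrophage marker matched, Cd68, was at 16.1 to 18.2 and 9.47 to 11.3 RPKM, and the platelet gene Itga2b was under 5 RPKM throughout. Srgn is also expressed by mast cells and basophils, and the part of these cells in the result was not tested.

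**Figure D4:**
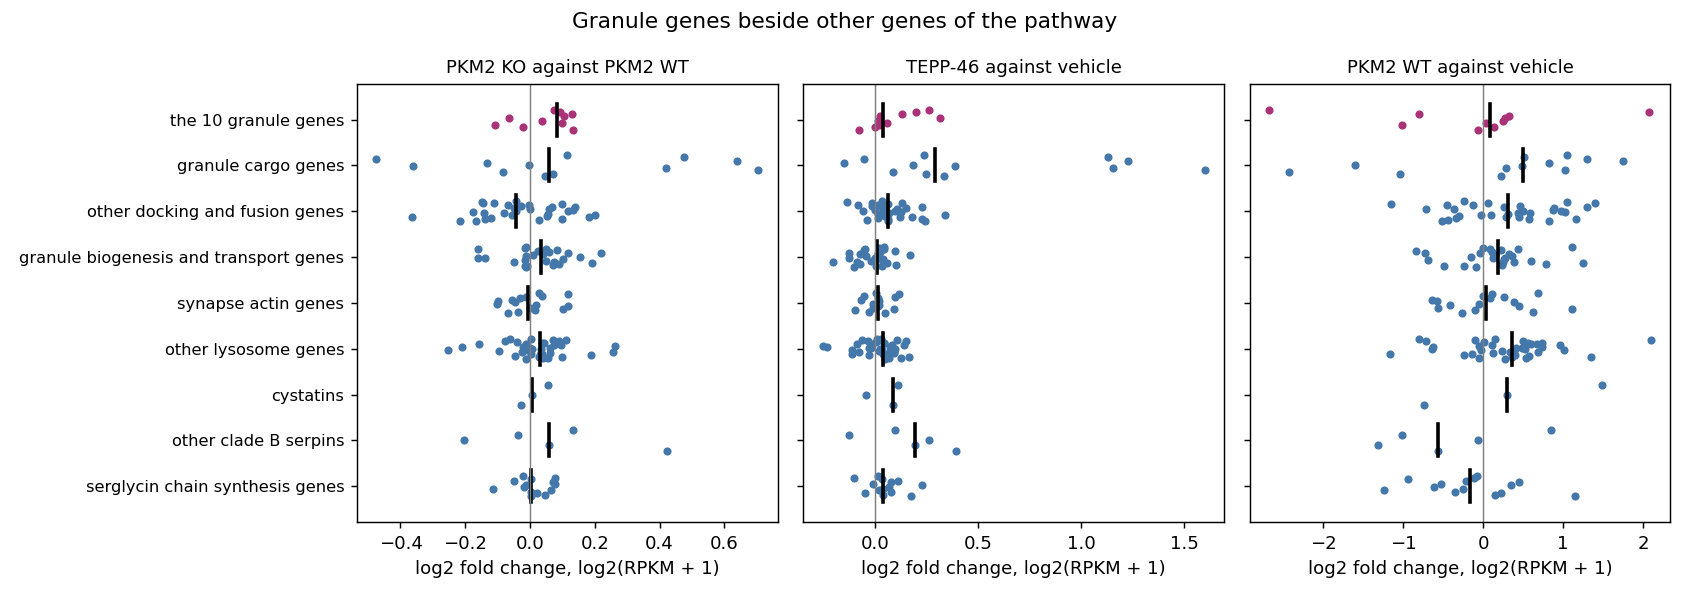
Log2 fold change on log2(RPKM + 1) of the 10 granule genes and of the tested genes of 8 other lists in 3 comparisons, each with its own axis; each point is a gene and the bar the list's median. The 10 genes lie within -0.11 and 0.13 in the genotype comparison and within -0.08 and 0.32 in the drug comparison, and spread from -2.67 to 2.08 between experiments.

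Loss of PKM2 was compared within the genotype experiment, to ask what loss of the enzyme changes in NK cells. With the PKM2 KO libraries set against those labelled PKM2 WT, none of the 10 genes passed the threshold. All estimates lay between -0.11 and 0.13 on the log2 scale, and no confidence interval reached beyond -0.32 or 0.28. The count was 0 of 10 with limma, against 0.0987% of all genes called, and 0 of 10 had an unadjusted p under 0.05, as 7.94% of all genes did. In 4 genes both PKM2 KO libraries lay above all PKM2 WT libraries, which 10.2% of all genes did, and 0 of 10 lay below, as 14.5% of all genes did.

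Those 4 were Unc13d (log2 0.13, 95% interval -0.02 to 0.28, adjusted p = 0.666), Ctsd (log2 0.13, interval -0.01 to 0.27, adjusted p = 0.639), Ctsc (log2 0.11, interval -0.05 to 0.26, adjusted p = 0.736) and Serpinb9 (log2 0.07, interval -0.05 to 0.19, adjusted p = 0.777). Stxbp2 stood at 0.10 and Ctsw at 0.09, with overlapping libraries. Lamp1 stood at 0.04, and Stx11 (-0.11), Srgn (-0.06) and Rab27a (-0.02), the member nearest to Pkm on its chromosome, were below 0. The median of the 10 genes was 0.08, with 7 above 0, and that of all genes 0, of which 50% were above 0. By the exact permutation test Ctsd reached p = 0.1, the smallest that 3 against 2 libraries allow.

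Of the 144 genes of the 8 other pathway lists 0 passed in the genotype comparison (limma), and 10 had an unadjusted p under 0.05, where 7.94% of all genes did. The smallest p among other docking and fusion genes was that of Stx8, an endosomal syntaxin (log2 -0.37, adjusted p = 0.456), and among biogenesis genes that of Vps33b (log2 0.22, adjusted p = 0.566). Serpinb9b, a gene of the same family next to Serpinb9 on its chromosome, was at 26.4, 26.7 and 21.8 RPKM in PKM2 WT, against 38.6 and 29.4 RPKM in PKM2 KO (log2 0.42, adjusted p = 0.599). The groups did not overlap. The sums of granulocyte, basophil and mast cell markers and of T cell markers stood apart by genotype, both lower in PKM2 KO. Those of dendritic cell markers overlapped, at 259 to 282 RPKM in PKM2 WT and 243 to 266 RPKM in PKM2 KO. Values of the platelet gene Itga2b overlapped too. No other-cell marker passed the threshold (limma, lowest adjusted p = 0.228, of Cd3g), and 3, Cd3g, Cd68 and Fcer1a, had an unadjusted p under 0.05. The 7 granulocyte, basophil and mast cell markers summed to 124 to 308 RPKM in PKM2 WT and 69.7 to 116 RPKM in PKM2 KO, with all 7 estimates below 0. The 3 T cell markers summed to 96.5 to 126 and 18.5 to 35.6 RPKM, chiefly through Cd3g, at a mean of 85.0 and 10.5 RPKM, while Trac was at 14.6 and 11.8 RPKM and Cd3d at 8.35 and 4.78 RPKM. Cd68 (log2 0.26) and Zbtb46 (log2 0.27) had estimates above 0. The part of such cells in the members' values was not tested.

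TEPP-46 was compared with vehicle in wild-type cells, to ask what activating the enzyme does. None of the 10 genes passed the threshold, and no gene of the table did. Srgn, Serpinb9, Ctsw and Ctsd had the highest estimates. The count was 0 of 10 with limma, against 0% of all genes called, while 4 of 10 had an unadjusted p under 0.05, as 9.43% of all genes did. In these 4 every TEPP-46 library lay above every vehicle library, which 7.61% of all genes did, and 0 of 10 lay below, as 7.71% of all genes did.

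Srgn had a mean of 702 ± 62.2 RPKM with TEPP-46 and 563 ± 11.7 RPKM with vehicle (SD, n = 3 each), a ratio of 1.25 (log2 0.32, 95% interval 0.14 to 0.50, adjusted p = 0.341, limma). Serpinb9 had 604 ± 74.0 and 502 ± 30.5 RPKM (SD, n = 3 each), a ratio of 1.20 (log2 0.26, interval 0.01 to 0.51, adjusted p = 0.524). Ctsw had 139 ± 9.13 and 121 ± 2.42 RPKM, a ratio of 1.15 (log2 0.20, interval 0.06 to 0.34, adjusted p = 0.425). For both Srgn and Serpinb9, TEPP-46 replicate 2 was the highest library of its group. Ctsd had 959 ± 8.25 and 876 ± 5.03 RPKM, a ratio of 1.09 (log2 0.13, interval 0.03 to 0.23, adjusted p = 0.450). All 4 reached p = 0.1 in the exact permutation test, the smallest that 3 against 3 libraries allow.

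The other 6 genes were closer to 0. Stxbp2 was at 0.06, Stx11 and Lamp1 at 0.02, Ctsc at 0.02, Rab27a at 0.00 and Unc13d at -0.08, all with overlapping libraries. The widest interval among them was that of Stx11, from -0.26 to 0.30. The median of the 10 genes was 0.04, with 9 above 0, against -0.02 for all genes, of which 42.9% were above 0.

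In the other lists 0 of 144 genes passed in the drug comparison (limma), and 17 had an unadjusted p under 0.05, where 9.43% of all genes did. Of 5 other clade B serpins 4 were above 0, and Serpinb9b was at 46.4, 62.3 and 40.96 RPKM with TEPP-46 against 37.5, 37.96 and 36.1 RPKM with vehicle (log2 0.39, adjusted p = 0.510). TEPP-46 replicate 2 was again the highest library. Of the granule cargo genes 10 of 12 were above 0, with a median of 0.29, and the smallest p belonged to Gzmf (log2 1.60, adjusted p = 0.239), Fasl, the Fas ligand gene (log2 0.34, adjusted p = 0.256), Gzme (log2 1.15, adjusted p = 0.316) and Gzmd (log2 1.13, adjusted p = 0.316). These 3 granzymes are close copies in the mouse, so reads may be split between them and their values are uncertain. Among the docking genes Rab8a was at 0.24 (adjusted p = 0.396) and Sytl2 at 0.23 (adjusted p = 0.410). Chst12, a chondroitin sulfotransferase of the serglycin chain list, was at 0.23 (adjusted p = 0.463). All 10 NK markers were above 0, and their summed level was 4312 to 4794 RPKM with TEPP-46 against 3769 to 3927 RPKM with vehicle, and their part in the members' values was not tested.

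Whether TEPP-46 and loss of PKM2 acted differently on the 10 genes was tested as the difference of both log2 fold changes. The effects come from separate experiments, so how drug and genotype differ cannot be told apart from experiment or a possible lack of cytokines. The difference passed for 0 of 10 genes with limma, where 0.0539% of all genes were called, and 2 of 10 had an unadjusted p under 0.05, as 6.72% of all genes did. Srgn had the widest difference, TEPP-46 minus PKM2 KO, of 0.38 (95% interval 0.10 to 0.66, adjusted p = 0.595). Unc13d had -0.21 (interval -0.40 to -0.02, adjusted p = 0.698), since it was above 0 in the genotype comparison and below 0 in the drug comparison. Serpinb9 (0.19), Stx11 (0.13) and Ctsw (0.11) were above 0 and Ctsc (-0.08) below, while for Ctsd, with 0.13 in each comparison, the difference was -3.9e-05 (interval -0.15 to 0.15).

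The authors deposited tables of their own for both comparisons, with 24 genes for TEPP-46 and 11 for PKM2 KO. Of the 10 granule genes, 0 were in the authors' deposited tables.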

How the data were processed

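RNA was sequenced from 12 samples, of which 11 had a matching column (PKM2 WT 3, PKM2 KO 2, vehicle 3, TEPP-46 3); PKM2 KO replicate 3 was not analysed here, and 5 library columns that matched no sample were not used. Reads were aligned with STAR to mm10, per the submitters' processing notes; versions, counting and strand handling are not stated in the sources used. The labels name both a stranded poly(A) kit and total RNA. The authors deposited RPKM per gene. The authors also deposited mean ratios (fold) and a p-value for genes past their cut-offs on fold change and false discovery rate. The sources used do not say how the ratios and p-values were computed. RPKM keeps no read depth here, so depth is unknown and no counting interval is given; the number of libraries limits the precision.

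From the RPKM, log2(RPKM + 1) was tested for genes averaging at least 1 RPKM, with limma 3.58.1 in R 4.3.3 (variance trend, Benjamini-Hochberg over all 11142 genes, threshold 0.05). The fit was checked on simulated data for recovery of 4-fold changes. These are far larger than the members' differences within either experiment, so the check does not speak to differences that small. Fold changes on this scale understate those of low genes. The genotype and drug comparisons used only their own libraries; the others used all 11 with 4 group means. Single genes were also given an exact two-sided permutation test of mean RPKM. Positions are from GENCODE M21 of GRCm38, and promoters from RefSeq on GRCm38.p6. All 10 genes are named in each comparison, and from each list at most 4, those of smallest p. The members and lists were chosen with earlier results of these data known. Alternatives were other pseudocounts, filters and scalings, a replicate block, a shared spread and leaving out each library.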

Additional observations from a re-analysis of the deposited data

How the results depend on the processing

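The count of the 10 genes that passed stayed at 0 in the genotype comparison, the drug comparison and their difference under every alternative run. For all tested genes the genotype count of 11 became 7 with a pseudocount of 5, 25 with the spread of all 11 libraries, 0 with the replicate block and 5 to 21 with a library left out. The drug count of 0 became 1 with a pseudocount of 0.1, 1 with rescaling without Rn7s1, Rn7s2 and Rn7sk, 3 with the replicate block and 0 to 3 with a library left out. The count for the difference, 6, became 10 with a pseudocount of 0.1, 3 with the replicate block and 3 to 12 with a library left out. Replicate numbers do not pair the samples by the labels, and deviations of same-numbered libraries correlated at 0.07 and -0.10 in the genotype experiment and at 0.05, 0.28 and 0.27 in the drug experiment, where each TEPP-46 library correlated best with its own number, a hint from the data. The cause of these changes was not tested.

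The median of the 10 genes moved to 0.15 (genotype) and 0.34 (PKM2 WT against vehicle) under quantile normalization, and ran from 0.017 to 0.093 in the drug comparison with a library left out. Estimates near 0 changed sign. In the genotype comparison Rab27a was 0.0055 under quantile normalization and 0.0091 when rescaled, and Srgn 0.0066 with the replicate block. With a library left out Rab27a ran from -0.044 to 0.012, Srgn from -0.12 to 0.0066 and Lamp1 from -0.0026 to 0.078. In the drug comparison the ranges were -0.050 to 0.043 for Rab27a, -0.052 to 0.10 for Stx11, -0.0099 to 0.12 for Stxbp2, -0.016 to 0.069 for Lamp1 and -0.028 to 0.066 for Ctsc. Between PKM2 WT and vehicle Unc13d was 0.15 under quantile normalization, and Stxbp2 ran from -0.019 to 0.069. Rab27a also passed there with median-of-ratios scaling (adjusted p = 0.0225), the replicate block (adjusted p = 0.0354) or without vehicle replicate 3 (adjusted p = 0.0335) or TEPP-46 replicate 2 (adjusted p = 0.0499). For the difference Ctsd was 0.00038 with a pseudocount of 5, 0.035 under quantile normalization, 0.028 with median-of-ratios scaling and 0.010 with the replicate block, Lamp1 0.0060 with median-of-ratios scaling, and with a library left out Ctsd ran from -0.025 to 0.019, Rab27a from -0.027 to 0.066, Lamp1 from -0.062 to 0.031 and Stxbp2 from -0.11 to 0.018.

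The groups hold 2 or 3 libraries, depth is unknown, and the comparison of PKM2 WT with vehicle cannot separate group from experiment or from a possible lack of cytokines. The difference between the TEPP-46 and PKM2 KO effects has the same limit. Without TEPP-46 replicate 2, the drug estimate was 0.24 for Srgn and 0.17 for Serpinb9.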
